A study of Mus musculus with 4 samples.

Results

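The 7 genes described here encode proteins of the eosinophil granule: the major basic protein genes Prg2 and Prg3, the peroxidase gene Epx, and the eosinophil-associated ribonuclease genes Ear1, Ear2, Ear6 and Ear10. They were taken by the gene symbol in the authors' deposited signal table. The rule uses no measured value, though the genes were proposed with earlier results of these data known. Each of the 7 was found, as 7 of the 24278 genes on the array. Cells of 4 kinds were sorted from adult mouse bone marrow, and the RNA of each was hybridised to 1 Agilent array in 1 colour. These groups were CLP-enriched cells from SFRP5-transgenic mice, the same sort from wild-type (WT) littermates, LSK cells from SFRP5-transgenic mice, and LSK cells from WT littermates. LSK cells are lineage-negative, c-kit high and Sca-1 positive and hold the blood stem cells and multipotent progenitors. The CLP gate takes IL7Rα-positive, lineage-negative cells with little c-kit and little Sca-1, and enriches for common lymphoid progenitors. SFRP5 is released by cells and antagonises the Wnt pathway, and the series set out to find genes that its expression affects. The sources used here do not give the promoter that drives the transgene, the number of mice behind a sample or any pooling of mice.

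Eosinophils are granulocytes that store a small set of very abundant cationic proteins and release them at sites of allergy and worm infection. Major basic protein forms the crystalline core of the granule and eosinophil peroxidase makes toxic oxidants. The Ear proteins are secreted enzymes of the ribonuclease A family, which has multiplied by gene duplication in the mouse. In bone marrow, transcription of granule genes starts in precursors, before a cell looks like an eosinophil, under GATA and C/EBP transcription factors and the cytokine IL-5. By the array's annotation Ear1, Ear2 and Ear10 lie in band 14qC1 and Ear6 in 14qC2, Prg2 and Prg3 in 2qD, and Epx in 11qC. In the RefSeq gene table (GRCm38.p6) Prg2 and Prg3 are immediate neighbours, as are Ear1 and Ear10 among protein-coding genes.

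The upstream sequences show how close the Ear copies are to each other in front of their starts. They say nothing of the transcripts that the probes bind, which were not compared here. Of the 7 genes, 6 had an entry in the RefSeq promoter table (GRCm38.p6), from which the 250 bases before the annotated start are printed 5′ to 3′ on the gene's strand. Between the 4 Ear members, aligned bases were from 92.2% to 99.2% identical, and Ear1 and Ear2 differed at 2 of 248. In the Ear set below, capitals mark bases that differ from Ear1, or that Ear1 lacks, within the aligned stretch. Rnase2b is the current name of Ear5, a family member added here because its probe was not well above background on any of these arrays.
Ear1 (chr14:43819640-43819889, minus strand): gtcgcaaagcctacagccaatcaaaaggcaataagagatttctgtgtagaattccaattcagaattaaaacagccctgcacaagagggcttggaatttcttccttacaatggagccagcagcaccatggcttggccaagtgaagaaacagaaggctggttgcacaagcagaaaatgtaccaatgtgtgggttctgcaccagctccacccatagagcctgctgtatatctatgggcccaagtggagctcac
Ear2 (chr14:44102404-44102653, plus strand): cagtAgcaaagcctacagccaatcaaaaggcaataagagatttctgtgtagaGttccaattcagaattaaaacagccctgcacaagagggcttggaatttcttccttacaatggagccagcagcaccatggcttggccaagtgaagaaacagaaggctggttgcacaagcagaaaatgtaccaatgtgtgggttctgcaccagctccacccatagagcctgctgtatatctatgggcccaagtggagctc
Ear10 (chr14:43923597-43923846, minus strand): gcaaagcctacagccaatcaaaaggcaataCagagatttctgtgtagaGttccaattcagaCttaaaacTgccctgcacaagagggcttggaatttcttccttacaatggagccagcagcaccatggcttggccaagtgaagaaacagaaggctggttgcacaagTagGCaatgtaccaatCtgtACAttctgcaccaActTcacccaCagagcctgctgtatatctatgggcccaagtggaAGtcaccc
Ear6 (chr14:51853518-51853767, plus strand): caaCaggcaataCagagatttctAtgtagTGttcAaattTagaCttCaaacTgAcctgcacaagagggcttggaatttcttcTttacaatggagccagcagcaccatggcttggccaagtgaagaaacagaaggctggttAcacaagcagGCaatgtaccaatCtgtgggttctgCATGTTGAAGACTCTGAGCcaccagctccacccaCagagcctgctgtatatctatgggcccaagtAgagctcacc
Rnase2b (chr14:51162010-51162259, plus strand): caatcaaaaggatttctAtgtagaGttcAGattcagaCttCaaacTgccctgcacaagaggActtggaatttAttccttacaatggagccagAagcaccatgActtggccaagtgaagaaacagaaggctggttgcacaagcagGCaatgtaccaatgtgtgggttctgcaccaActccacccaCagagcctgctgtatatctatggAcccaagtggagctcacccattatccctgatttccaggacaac
The longest run of capitals in Ear6 is a stretch of 19 bases that Ear1 lacks. It also stands in the upstream window of Rnase2a, the current name of Ear11, and not in those of Ear2, Ear10 and Rnase2b. Rnase2b was from 92.4% to 93.2% identical to the 4 Ear members, inside the range between the members themselves. Rnase2a was from 85.7% to 88.2% identical to them, below that range. Prg3 and Epx are shown for contrast, since neither is related to the Ear set. Here capitals mark the letters GATAA (or TTATC, the other strand) and TATAAA (or TTTATA).
Prg3 (chr2:84987965-84988214, plus strand): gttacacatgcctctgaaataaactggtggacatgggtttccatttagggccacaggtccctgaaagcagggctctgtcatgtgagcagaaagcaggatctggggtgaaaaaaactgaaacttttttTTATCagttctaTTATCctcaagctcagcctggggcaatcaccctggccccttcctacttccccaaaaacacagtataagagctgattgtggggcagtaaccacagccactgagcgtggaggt
Epx (chr11:87875537-87875786, minus strand): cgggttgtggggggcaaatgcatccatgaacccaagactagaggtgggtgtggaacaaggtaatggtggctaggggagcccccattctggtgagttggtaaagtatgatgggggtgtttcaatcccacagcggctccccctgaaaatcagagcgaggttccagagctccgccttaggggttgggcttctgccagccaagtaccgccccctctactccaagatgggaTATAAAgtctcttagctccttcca
The letters GATAA, the core of sites that GATA factors can bind, stood 123 and 111 bases before the start of Prg3 and in none of the other 5 member windows. They also stood 23 bases before the start of Rnase2b and 20 before Rnase2a, and occur in 22.5% of 32536 mouse promoter windows of this length. The pattern TTNNGCAA (or TTGCNNAA), found in C/EBP-type sites, stood 92 bases before the start of Ear1, 90 before Ear2 and 94 before Ear10, and occurs in 9.57% of windows. It also stood 118 bases before the start of Rnase2b and 217 before Rnase2a, and was not in the windows of Ear6, Prg3 or Epx. TATAAA stood 24 bases before the start of Epx and in no other member window, against 12.3% of all windows. No motif searched overlaps another in these windows, and a match is a description of letters and not of a bound site.

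Each member was measured by 1 probe with 1 spot. The flag that the scanner software sets put all 7 probes well above background on all 4 arrays, and the authors' table gave each its highest call, 2, on all 4. No member spot carried an outlier flag, and no spot of the arrays was saturated. Log2 signals below have the array's own 75th percentile subtracted, so 0 is that percentile. With 1 array per group there was no replicate check, no test between groups was possible, and "higher" and "lower" describe these 4 arrays. The only spread that could be measured was that between spots of 1 probe on 1 array, a median SD of 0.059 in SFRP5 CLP, 0.062 in WT CLP, 0.063 in SFRP5 LSK and 0.071 in WT LSK on the log2 scale for probes above the 75th percentile. The largest of these SDs, that of WT LSK, gives 0.0998 for a difference between 2 arrays. This spread leaves out cells, mice and amplification. The scanner software's error of a member spot lay between 10% and 15.6% of its signal, and was largest for Ear6 in WT LSK.

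The sort markers mostly followed the gates. Il7r, the receptor chain of the CLP gate, had log2 signals of 3.13 in SFRP5 CLP and 2.52 in WT CLP, against 0.89 in SFRP5 LSK and -0.51 in WT LSK. Kit, the stem cell factor receptor, was lower in CLP than in LSK, by log2 differences of -1.71 in SFRP5 and -2.33 in WT. The same was so of Ly6a, which encodes Sca-1, with -1.72 in SFRP5 and -2.20 in WT. Flt3, a cytokine receptor usually carried by common lymphoid progenitors but no part of this gate, was lower in CLP too, by -2.78 in SFRP5 and -2.71 in WT. The share of probes well above background lay between 65.3% and 70.1% per array. The genotypes also differed in sex-linked RNA. Xist, chosen after its values were seen, was well above background on both SFRP5 arrays and on neither WT array. The Y-linked Ddx3y, Eif2s3y, Kdm5d and Uty passed the background flag on each of the 4 arrays, with lower signals in SFRP5 than in WT in both sorts. Ddx3y, for example, had -1.55 in SFRP5 CLP and -0.02 in WT CLP, and -1.85 in SFRP5 LSK and -0.50 in WT LSK. The SFRP5 samples thus held Xist and Y-linked RNA, and genotype and the sex make-up of the samples cannot be told apart.

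Comparing CLP with LSK asks in which sort the granule genes had the higher signal. All 7 were higher in CLP than in LSK in both genotypes, and by more than nearly all other genes. In SFRP5 mice the folds ran from 13.5 to 56.3, with a median log2 difference of 5.07, and in WT mice from 69.2 to 196, with a median of 6.63. All genes measured had medians of 0.02 in both genotypes. All 7 members were at least 2-fold higher in each genotype, against 11.5% of 15713 genes measured in SFRP5 and 17.8% of 16018 in WT. At least 32-fold higher were 4 of 7 in SFRP5, against 0.185% of genes, and 7 of 7 in WT, against 0.356%. The members ranked between 9 and 92 from the top in SFRP5 and between 2 and 25 in WT. In sorted populations such as these, more cells of a type and more RNA per cell cannot be told apart.

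Among the granule core genes, Prg2, which encodes major basic protein, had log2 signals of 7.47 in SFRP5 CLP and 7.93 in WT CLP, against 2.5 in SFRP5 LSK and 0.31 in WT LSK. Both CLP arrays were far above both LSK arrays, 31.2-fold in SFRP5 and 196-fold in WT. Prg3, the gene of the related second major basic protein, had 5.36 in SFRP5 CLP and 5.53 in WT CLP, against 0.21 in SFRP5 LSK and -0.78 in WT LSK. These differences were 35.6-fold in SFRP5 and 79.2-fold in WT. Epx, the peroxidase, had 5.97 in SFRP5 CLP and 5.52 in WT CLP, against 0.51 in SFRP5 LSK and -1.91 in WT LSK. It was 44.0-fold higher in CLP than in LSK in SFRP5 and 172-fold in WT.

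The 4 ribonuclease genes followed the same order of sorts. Ear1 had log2 signals of 5.58 in SFRP5 CLP and 5.67 in WT CLP, against 1.83 in SFRP5 LSK and -0.95 in WT LSK. In SFRP5 its 13.5-fold difference was the smallest of the 7, while in WT it was 98.9-fold. Ear2 had 5.13 in SFRP5 CLP and 5.08 in WT CLP, against 0.06 in SFRP5 LSK and -1.09 in WT LSK. Ear10 had 5.38 in SFRP5 CLP and 5.47 in WT CLP, against 0.43 in SFRP5 LSK and -0.65 in WT LSK. For both genes the pair of CLP arrays nearly coincided, and the sort differences were 33.5-fold in SFRP5 and 71.7-fold in WT for Ear2, and 31.0-fold in SFRP5 and 69.2-fold in WT for Ear10. Ear6 had 3.88 in SFRP5 CLP and 3.65 in WT CLP, against -1.93 in SFRP5 LSK and -3.82 in WT LSK. Its differences were 56.3-fold in SFRP5, the largest of the 7 there, and 177-fold in WT.

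**Figure D1:**
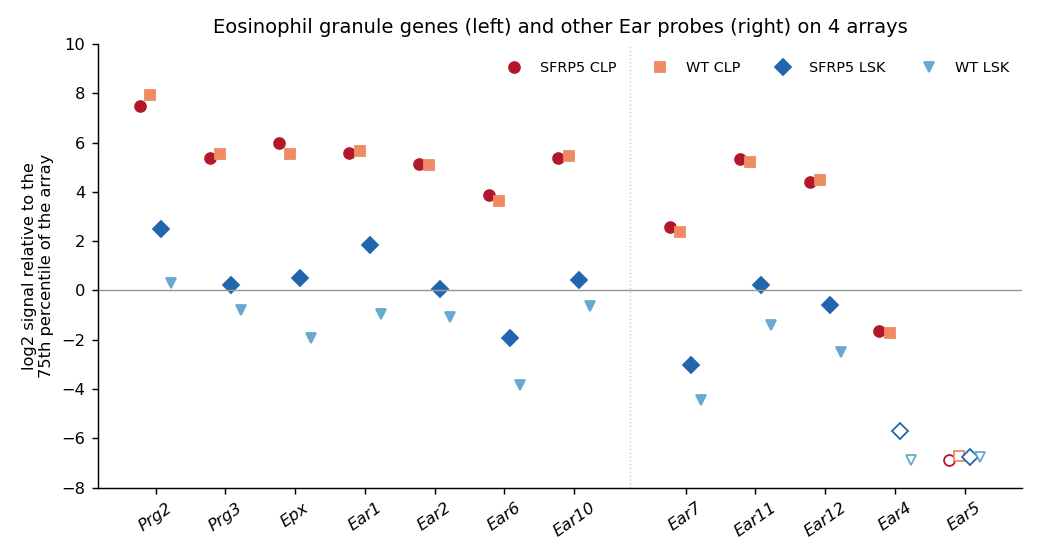
Log2 signal relative to the 75th percentile of the array (vertical axis) for the 7 granule genes, left of the dotted line, and 5 further Ear probes, right of it, with 1 point per array. Open symbols are probes not well above background. For each granule gene both CLP points lie above both LSK points, and the SFRP5 LSK point lies above the WT LSK point.

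The array carries probes of 5 further Ear genes, which bear on how far the 4 Ear members can be told apart. Ear7, Ear11 and Ear12 were above background on all 4 arrays, with CLP over LSK differences of 48.4-fold, 34.6-fold and 32.2-fold in SFRP5, and 114-fold, 99.1-fold and 129.5-fold in WT. Ear4 was well above background on the CLP arrays alone, at -1.66 in SFRP5 CLP and -1.71 in WT CLP. It was therefore at least 10.7-fold higher in CLP than in LSK in SFRP5 and at least 10.3-fold in WT. For such a bound the LSK value is the array's lowest signal that passed the flag, or the probe's own signal if higher. Ear5, the Rnase2b of the sequences above, was not well above background on any array. The probe sequences were not used here. Binding of 1 Ear transcript by the probes of several Ear genes cannot be told apart from transcription of each of those genes.

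The comparison of SFRP5 with WT CLP cells asks whether the transgene goes with a change of these genes in the sort where they are abundant. None of the 7 differed by 2-fold or more, where 4.25% of 15943 genes were higher by that much and 4.3% lower. The log2 differences ran from -0.46 for Prg2 to 0.45 for Epx, with a median of -0.08, and -0.04 over all genes measured. Epx and Ear6 (0.23) were above 0 and Prg2 and Prg3 (-0.17) below it by more than the spread between spots. Prg3 was within that spread with quantile normalization (-0.002), with normexp background correction (-0.05) and in the authors' table (-0.07). Ear1 (-0.09), Ear2 (0.05) and Ear10 (-0.08) differed by less than that spread, 0.0998. It was set from WT LSK, an array with a larger SD than either CLP array. The Ear7, Ear11, Ear12 and Ear4 probes differed by 0.20, 0.11, -0.10 and 0.05.

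The same comparison in LSK concerns a sort in which these genes were much dimmer. All 7 genes had a higher signal in SFRP5 LSK than in WT LSK, and 6 were at least 2-fold higher, against 6.57% of 16126 genes. None was lower, against 7.17% of genes at least 2-fold lower. The median log2 difference was 1.89 (3.70-fold), beside 0.02 over all genes measured. The members ranked between 36 and 1089 from the top. The largest differences were those of Ear1 at 2.78 (6.87-fold), Epx at 2.42 (5.36-fold) and Prg2 at 2.19 (4.57-fold). Ear6 followed at 1.89 (3.70-fold), Ear2 at 1.15 (2.22-fold) and Ear10 at 1.07 (2.11-fold), and Prg3 at 0.99 (1.98-fold) lay just under 2-fold. With normexp background correction 3 of 7 (Ear1, Prg2 and Epx) were at least 2-fold higher, against 467 of 16102 genes in that setting. The other 4 then had log2 differences from 0.78 for Ear6 to 0.94 for Ear2. Ear7, Ear11 and Ear12 were 2.70-fold, 3.10-fold and 3.76-fold higher in SFRP5 LSK. The signals involved were low beside those in CLP. In SFRP5 LSK the processed intensities of the 7 ran from 72.6 (Ear6) to 1573 (Prg2), and in WT LSK from 19.6 to 343 for the same genes. On the log2 scale the members in SFRP5 LSK stood between -1.93 and 2.5, and in WT LSK between -3.82 and 0.31.

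Ear1 and Ear2 differ at 2 of 248 aligned upstream bases, and their probes gave 6.87-fold and 2.22-fold in this comparison. On the CLP arrays the same 2 probes differed between genotypes by less than 0.0998, the spread between spots set from WT LSK. The source of the difference between these probes was not tested.

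**Figure D2:**
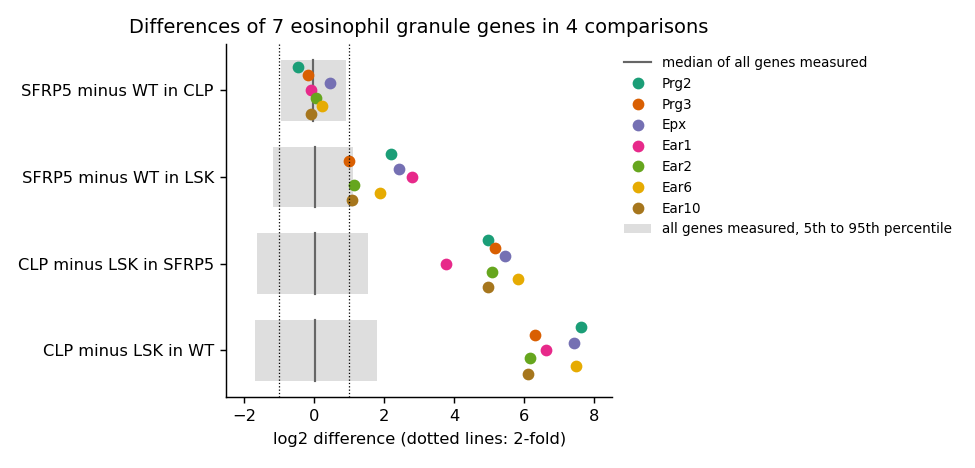
Log2 differences (horizontal axis) of the 7 genes in 4 comparisons, 1 coloured point per gene, over the 5th to 95th percentile (grey bar) and median (line) of all genes measured. The points lie inside the bar for SFRP5 minus WT in CLP and far right of it in both sort comparisons. For SFRP5 minus WT in LSK they lie between 0.99 and 2.78. There the bar ends at 1.11, so Prg3 and Ear10 lie inside it and the other points to its right.

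Set against the CLP level of the same genotype, the LSK signal of a member was from 1.78% to 7.40% in SFRP5 mice (median 2.98%) and from 0.509% to 1.44% in WT mice (median 1.01%). In SFRP5 mice 6 of the 7 lay between 1.78% and 3.23%, and Ear1 stood apart at 7.40%. The genotype difference in LSK exceeded that in CLP for all 7, by 1.1 (Ear2) to 2.87 (Ear1) on the log2 scale, with a median of 1.65. With normexp Ear6 (0.54), Ear2 (0.81), Prg3 (0.85) and Ear10 (0.94) were below 1, as were Ear2, Ear10 and Prg3 in the authors' table and with cyclic loess. A value of at least 1 was found for 11.8% of the 15181 genes above background on all 4 arrays, whose median was 0.05, both with the 75th percentile subtracted. The same quantity is the gap between the sort difference in WT and that in SFRP5, because the 4 comparisons share the same 4 arrays. WT LSK in particular enters both the genotype difference in LSK and the sort difference in WT.

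**Figure D3:**
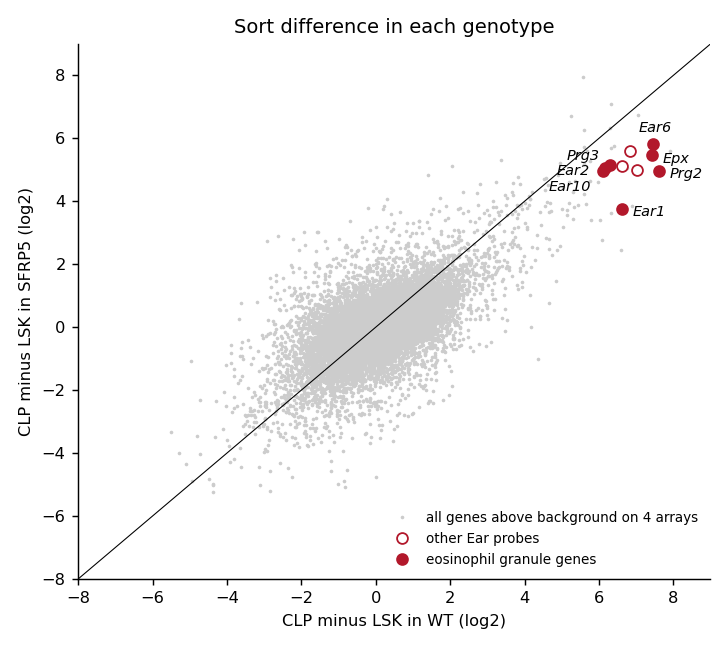
CLP minus LSK difference (log2) in SFRP5 (vertical axis) against that in WT (horizontal axis), 1 point per gene above background on 4 arrays, with the line of equality. The 7 granule genes (filled) and 3 other Ear probes (open) lie at the upper right, below the line, with Ear1 furthest below it.

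Receptors and enzymes of the eosinophil were described as the setting of the granule genes. Of 20 listed eosinophil receptors and enzymes 19 were on the array. Over all genes measured, 11.5% were at least 2-fold higher in CLP than in LSK and 11.0% lower in SFRP5. In WT these shares were 17.8% and 14.3%. In CLP minus LSK, 6 of 16 measured reached 2-fold higher and 3 lower in SFRP5, with a median of 0.31 and 2 more higher by a bound. In WT, 3 of 14 were higher and 2 lower, with a median of 0.04 and 4 more higher by a bound (Alox5, Alox15, Adgre1 and Adgre4). Il5ra, the receptor chain that makes eosinophil precursors responsive to IL-5, differed by 1.11 in SFRP5 and 0.75 in WT. Siglecf, a surface lectin of mature mouse eosinophils, differed by 2.89 in SFRP5 and 2.23 in WT. Il1rl1, the IL-33 receptor, differed by 2.44 in SFRP5 and 4.88 in WT. Ccr3, the eotaxin receptor that marks mature eosinophils, was well above background on 3 of 4 arrays but dim, at -4.27 in SFRP5 CLP and -3.74 in WT CLP, against -4.40 in SFRP5 LSK, the array that missed the flag, and -4.40 in WT LSK. Alox15, a lipid-oxidising enzyme of eosinophils, was well above background on the CLP arrays alone. The members at least 2-fold lower in CLP were Itgax (-2.01), Ptger3 (-1.64) and S1pr4 (-1.28) in SFRP5. In WT they were Hrh4 (-1.19) and Itgax (-1.19). Between genotypes in LSK, 1 of 13 measured was at least 2-fold higher (Il1rl1, by 2.22) and none lower, and 2 more were higher by a bound. The shares over all genes measured were 6.57% higher and 7.17% lower. In CLP, none of 19 was at least 2-fold higher and 2 were lower, against 4.25% and 4.3% of all genes measured.

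Among the 15 regulators of the eosinophil lineage, Cebpe, a C/EBP factor of late granulocyte maturation, was well above background on the CLP arrays alone, at 2.04 in SFRP5 and 2.49 in WT. Gata1, which is required to make eosinophils and also drives red cell genes, was higher in CLP than in LSK by 4.74 in SFRP5 and 4.58 in WT. Gata2 had -0.98 in SFRP5 and -0.68 in WT, and Spi1, which encodes the myeloid factor PU.1, -0.55 in SFRP5 and 0.25 in WT. In all, 5 of 14 measured reached 2-fold higher and 1 lower in SFRP5, against 11.5% and 11.0% of all genes measured. In WT 7 of 14 were higher and none lower, against 17.8% and 14.3%. Between genotypes in LSK 4 of 14 were at least 2-fold higher, against 6.57% of all genes measured: Id1 (3.17), Id2 (1.48), Cebpa (1.22) and Cebpb (1.18). Gata1 and Xbp1 went the other way there, at -0.82 and -0.81. In CLP 1 of 15, Trib1 at 1.29, reached 2-fold higher in SFRP5 and none 2-fold lower. The shares over all genes measured were 4.25% and 4.3%.

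Erythroid, neutrophil and lymphoid markers were mostly higher in CLP than in LSK, as the granule genes were, while the other lists were mixed. Over all genes measured, 11.5% were at least 2-fold higher in CLP and 11.0% lower in SFRP5, and 17.8% and 14.3% in WT. Of 14 erythroid markers 13 were measured, and 12 were at least 2-fold higher in CLP than in LSK in each genotype, as was 1 more by a bound. Of 12 neutrophil granule markers measured, 8 were higher and 1 lower in SFRP5, and 9 higher and 1 lower in WT, with 2 more higher by a bound in each. Highest were Ms4a3 in SFRP5 at 7.95 and Elane in WT at 5.97. Of 12 lymphoid markers measured, 10 were higher and 1, Flt3, lower in each genotype, with 1 more higher by a bound. Of 17 basophil and mast cell markers, 4 of 7 measured were higher in SFRP5, with 4 more higher and 1 lower by a bound, and 4 of 9 higher and 2 lower in WT, with 3 more higher by a bound. The basophil protease Prss34 differed by 5.75 in SFRP5 and 6.40 in WT. The mast cell proteases were mixed. Cpa3 differed by 2.66 in SFRP5 and 3.37 in WT, and Tpsb2 by -0.75 in SFRP5 and -1.73 in WT. Cma1 was well above background on the CLP arrays alone, Mcpt4 on the LSK arrays alone and Mcpt2 on the WT arrays alone. Mcpt1 and Tpsab1 were not well above background on any array. Monocyte and macrophage markers had 6 of 13 higher and 2 lower in SFRP5 (median 0.17), and 4 of 10 higher and 1 lower in WT (median 0.11), with 2 more higher by a bound. The summed signal of the 15 neutrophil markers, in multiples of the 75th percentile, was 326 in SFRP5 CLP and 296 in WT CLP, against 59.9 in SFRP5 LSK and 34.6 in WT LSK. That of the 7 granule genes was 420 in SFRP5 CLP and 477 in WT CLP, against 14.5 in SFRP5 LSK and 3.78 in WT LSK. For the 14 erythroid markers it was 648 in SFRP5 CLP and 1037 in WT CLP, against 61.3 in SFRP5 LSK and 66.7 in WT LSK. The part of these cells in the granule gene signal was not tested.

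Between genotypes in LSK the other lists were mixed. Among all 16126 genes measured there, 6.57% reached 2-fold higher in SFRP5 and 7.17% reached 2-fold lower. Of 11 neutrophil markers measured 5 reached 2-fold higher in SFRP5 and 2 lower, with 1 more in each direction by a bound, from Ngp at 3.84 to Retnlg at -2.34. None of 13 erythroid markers reached 2-fold in either direction, with Car1 highest, just under that size, and Ermap lowest at -0.74. Basophil and mast cell markers had 2 of 7 higher and none lower (and 3 lower by a bound), with Prss34 at 0.10 and Cpa3 at 0.19, while the mast cell protease Mcpt4 was highest at 3.82. Lymphoid markers had 4 of 12 higher and 3 lower, and monocyte and macrophage markers 1 of 10 higher and none lower, with 1 more higher by a bound. The median of 8 housekeeping and abundant genes was 0.30 in this comparison. Whether a different make-up of the SFRP5 LSK sort goes with the granule gene difference was not tested.

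**Figure D4:**
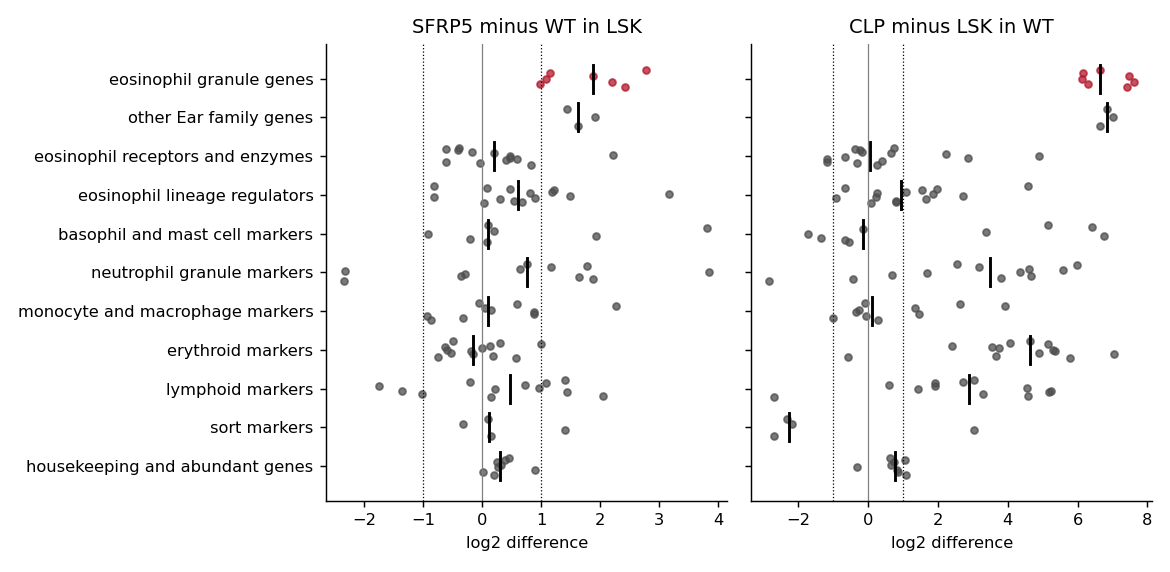
Log2 differences of single genes (points) and list medians (black bars) for SFRP5 minus WT in LSK (left) and CLP minus LSK in WT (right), over genes above background on both arrays. The granule genes (red) lie between 0.99 and 2.78 on the left and between 6.11 and 7.62 on the right, and the erythroid markers have a median of -0.16 on the left and 4.64 on the right.

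Which other genes had the most similar pattern was measured by the root mean square distance between log2 profiles over the 4 arrays, each centred on its own mean, from the median profile of the 7 members. Of 13138 named genes above background on all 4 arrays, the 5 closest were Ear12 (distance 0.12), Rnase2a, the array's Ear11 (0.16), Hdc (0.18), Ear7 (0.22) and Elane (0.42). The members themselves lay at 0.27 (Prg2) to 0.55 (Ear1) from that profile. Hdc, histidine decarboxylase, makes histamine and is used by basophils and mast cells. Its log2 signals were 2.62 in SFRP5 CLP and 2.39 in WT CLP, against -2.44 in SFRP5 LSK and -4.38 in WT LSK. Elane, the neutrophil elastase of primary granules, had 5.03 in SFRP5 CLP and 4.61 in WT CLP, against 0.42 in SFRP5 LSK and -1.36 in WT LSK. Hdc and Elane were picked for this likeness, so their shared order of arrays follows from the choice. In both the CLP arrays stood above the LSK arrays. SFRP5 LSK stood above WT LSK by 1.93 for Hdc and 1.78 for Elane. The likeness rests on 4 arrays and is a description.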

How the data were processed

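RNA was labelled with Cy3 from 6.1 ng of total RNA per sample after whole-transcriptome amplification, per the labels' protocols, and hybridised to 4 arrays on 1 slide. Per the file headers, the deposited intensity of each spot is background-subtracted and spatially detrended, the work of Agilent Feature Extraction (10.10.1.1 in the headers, 10.10 per the submitters' processing notes). The signal table that the authors deposited holds the same intensity times 1 factor per array (4.91 for SFRP5 CLP, 5.86 for WT CLP, 5.85 for SFRP5 LSK and 6.42 for WT LSK, computed here). The sources used here do not give how these factors were set. It also holds a detection call, 2 of which matched the scanner files' well-above-background flag in 100% of spots. No column of other samples was present.

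From the intensity, log2 was taken and each array's 75th percentile subtracted, spots flagged as outliers were left out, and spots of a probe were averaged. A gene was represented by its probe with the highest mean, and entered a comparison when well above background on both arrays. Where it was so on 1 array, a bound was given. Old symbols were updated through Entrez IDs in the RefSeq table (30994 of 55681 probes matched). Tools were Python 3.11.15, pandas 2.3.3, Biopython 1.88 for alignments, and R 4.3.3 with limma 3.58.1 for normexp, quantile and cyclic loess. The calculation was tested on simulated arrays with known differences. Those differences were well past 2-fold and set on bright probes, so dim signals such as those in LSK were not covered. No test between groups was possible with 1 array per group, and counts of genes at least 2-fold apart are descriptions.

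The genes named are the 7 members, other Ear probes, the 5 nearest profiles, and members of 11 marker lists. Those list members define their cell type, stand at the ends of a list or show how a list is mixed. Sex-linked genes and the neighbours of Prg2, Prg3 and Epx on the chromosome are named as well. The members and lists were chosen with earlier results of these data known. Array annotation uses mm9, and the RefSeq coordinates printed are GRCm38.p6. Alternatives were 3 other normalizations (quantile, cyclic loess, array median), normexp background correction, the authors' table, 2 other filters on dim probes, keeping outlier-flagged spots and averaging the probes of a gene. Normexp was run on the median spot signal, a choice made after seeing the data because the files hold no mean signal.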

Additional observations from a re-analysis of the deposited data

Results flagged for a closer look

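For 4 of the 7 genes the SFRP5 minus WT difference was above 0 in LSK and below 0 in CLP, which with 1 array per group is an untested opposition of signs. The share of all genes with these signs is not given here. The difference in LSK exceeded that in CLP for 8009 of the 15181 genes above background on all 4 arrays. Prg2 differed by 2.19 in LSK and -0.46 in CLP, a gap of 2.65 on the log2 scale. Ear1 differed by 2.78 in LSK and -0.09 in CLP, a gap of 2.87. Prg3 differed by 0.99 in LSK and -0.17 in CLP, a gap of 1.15. Its CLP value was -0.002 with quantile normalization. Ear10 differed by 1.07 in LSK and -0.08 in CLP, a gap of 1.16. For Ear1 and Ear10 the CLP value was within 0.0998, the spread between spots of 1 probe set from WT LSK. It was above 0 with quantile normalization (0.09 for Ear1 and 0.08 for Ear10) and in the authors' deposited table (0.01 for each). The difference between the sorts was not tested.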

How the results depend on the processing

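Over 9 alternatives, 7 of 7 granule genes were at least 2-fold higher in CLP than in LSK in each genotype, and none was 2-fold apart between genotypes in CLP. The count at least 2-fold higher in SFRP5 LSK than in WT LSK was 6 of 7 and ran from 3 (normexp) to 7. Of all genes measured, 467 of 16102 were that much higher with normexp. Where 7 of 7 members were, it was 1352 of 16125 genes with quantile and 2169 of 16126 with the array median. The direction held for all 7 genes in that comparison under every alternative. The lowest median difference in that comparison was 0.94 and the highest 2.24. The sort medians ran from 4.84 to 5.15 in SFRP5 and from 5.69 to 7.0 in WT. Ear6, the dimmest member, ranged most in SFRP5 minus WT in LSK, from 0.78 to 2.24. Its gap between the genotype difference in LSK and that in CLP ranged from 0.54 (normexp) to 1.95. Scaling moved the median of all genes by more than 0.1 in some comparisons. Centring on the array median put it at 0.34 for SFRP5 minus WT in LSK (0.02 before) and 0.39 for CLP minus LSK in WT (0.02 before). The authors' table put it at -0.11 for SFRP5 minus WT in LSK, and at -0.16 in SFRP5 and -0.40 in WT for CLP minus LSK. The share of 2-fold differences that were higher, 47.8% in SFRP5 minus WT in LSK, was 62.8% with normexp, 59.0% with quantile, 63.4% with cyclic loess, 78.3% with the array median, 33.4% in the authors' table and 35.9% with no filter. It was 49.7% in CLP (60.1% in the authors' table). For CLP minus LSK it was 51.1% in SFRP5 (37.6% in the authors' table) and 55.5% in WT (66.0% with normexp, 78.6% with the array median, 26.6% in the authors' table). Counts over all genes moved by more than 1.5 times in places. In SFRP5 minus WT in LSK, 1059 higher and 1156 lower became 467 and 277 with normexp, 2169 and 602 with the array median, and 1780 and 3177 with no filter. In CLP, 678 higher and 686 lower became 169 and 156 with normexp and 1686 and 2035 with no filter. In CLP minus LSK in SFRP5, 1806 higher and 1729 lower became 1076 and 1010 with normexp and 3200 and 3076 with no filter. In WT, 2848 higher and 2288 lower became 2016 and 1039 with normexp, 4539 and 1233 with the array median, 1538 and 4238 in the authors' table, and 3877 and 4247 with no filter. No paired analysis was possible because each group holds 1 array and the labels give no replicate numbers. One array per group, and low signal over background in LSK, limit every value.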

Other observations

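Genes beside the granule genes on the chromosome were looked up in the RefSeq order. Slc43a3 and P2rx3 flank the pair of Prg2 and Prg3. In CLP minus LSK, Slc43a3, a membrane transporter, differed by 0.97 in SFRP5 and 1.97 in WT, and P2rx3, an ATP-gated channel, by 0.02 in SFRP5 and -0.73 in WT. On one side of Epx lies Mks1, then Lpo and then Mpo, and on the other the olfactory receptor gene Olfr462, which was well above background on 3 of 4 arrays and differed by 0.32 in SFRP5. Mks1, a gene of the cilium, differed by 0.59 in SFRP5 and 0.80 in WT, and Lpo, the lactoperoxidase gene, by 0.19 in SFRP5 and -0.48 in WT. Mpo, the neutrophil peroxidase, differed by 2.04 in SFRP5 and 2.56 in WT. The difference of Epx was larger than those of Mks1, Lpo and Mpo in both genotypes, as were those of Prg2 and Prg3 beside Slc43a3 and P2rx3.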
